A study of Mus musculus with 10 samples.

Results

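Cytochrome P450 family 2 (Cyp2) was read out in mouse liver after VEGF gene transfer, and 50 of the 24016 rows of the deposited table belonged to it. The members were all rows whose gene symbol starts with Cyp2 followed by a subfamily letter and a number, a rule on names that uses no expression values. They were measured in the livers of 10 male C57BL/6 mice, 8 to 12 weeks old. A group of 5 mice received AdVEGFA, an adenovirus in which the CMV promoter drives VEGF-A165, and 5 received AdCMV, an empty adenovirus carrying that promoter without a transgene. Both vectors were injected into a tail vein and the livers were taken 6 days later, so every mouse carried an adenovirus, the CMV promoter drives expression without regard to cell type, and no uninjected mouse was measured. RNA came from whole liver, depleted of ribosomal RNA.

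Cytochromes P450 are heme enzymes of the endoplasmic reticulum that insert an oxygen atom into a substrate, with electrons passed on by P450 oxidoreductase and cytochrome b5. Family 2 is the most expanded P450 family of the mouse, and most of its genes lie in tandem clusters that arose by duplication. In liver its enzymes are made mainly by hepatocytes and oxidize drugs, steroids, fatty acids and environmental chemicals, many of them in a zone around the central vein. The nuclear receptors CAR, encoded by Nr1i3, and PXR, encoded by Nr1i2, are well known inducers of several members, and growth hormone sets sex differences for others.

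Expression is given as RPKM, the reads on a transcript divided by its length and by the number of tags mapped in the library. A library held 5596563 to 13493991 mapped tags, and 3 reads on a transcript of 1 kb were worth 0.222 to 0.536 RPKM. The 50 genes together took 0.522% ± 0.116 (SD, n = 5) of the reads on transcripts in AdCMV livers, compared with 0.479% ± 0.0778 (SD, n = 5) in AdVEGFA livers. The major urinary protein (Mup) genes, abundant hepatocyte secretory genes with 21 rows, took 18.0% to 50.5% of the reads of an AdCMV library and 7.84% to 28.6% of an AdVEGFA library. AdCMV mouse 3 stood apart from the other AdCMV mice, with the lowest Mup share of its group and the highest Cyp2a4 and Cyp2a5 values. The main calls, the Cyp2a4 and Cyp2a5 values and the main family sums and shares below are given with and without it. The mouse Vegfa row was at 13.8 to 23.2 RPKM after AdCMV and at 28.3 to 39.4 RPKM after AdVEGFA. The species of the transgene is not stated outright, though the paper measured plasma and liver VEGF with an ELISA for human VEGF. How many transgene reads would map to this mouse row was not tested. It may hold reads of the mouse gene, of the transgene or of both.

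Of the 50 genes, 38 passed the filter on low values, for which either group had to average more than 0.5 RPKM, and were tested. Calls required an adjusted p below 0.05 together with a log2 fold change beyond 1 in either direction (limma on log2(RPKM + 0.1), Benjamini-Hochberg over all 13933 genes tested). By this rule 6 Cyp2 genes fell in the AdVEGFA group, namely Cyp2a5, Cyp2a4, Cyp2b9, Cyp2g1, Cyp2c38 and Cyp2c39, which is 15.8% of the tested members beside 1.54% of all genes. No member was called higher, while 13% of all genes were. At an unadjusted p under 0.05, 6 members had higher and 11 had lower values in the AdVEGFA group. Counts at this unadjusted p, here and below, were not made over all genes, and no result is drawn from them. Voom on the reads recovered from the RPKM values called 0 higher and 6 lower, beside 1993 and 215 of all genes. Without AdCMV mouse 3, 4 members were called lower (178 of all genes), as Cyp2c38 and Cyp2c39 lost their calls. Without AdCMV mouse 5 only 3 were called lower (196 of all genes), Cyp2a5, Cyp2a4 and Cyp2b9. Then 1 was called higher, Cyp2c44 (2041 of all genes).

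The scale of the comparison mattered for the size of these differences. Across all genes tested the median difference was 0.38 on the log2 scale in the deposited RPKM, and median-ratio scaling brought it to -0.0044. The tested Cyp2 genes had a median of -0.21, which is 0.59 below that of all genes, and 22 of 38 (57.9%) were under 0 beside 18.9% of all genes. After median-ratio scaling their median was -0.61, with 31 of 38 (81.6%) under 0 beside 50.4% of all genes. Then 10 members (26.3%) were called lower beside 3.14% of all genes, the same 6 together with Cyp2e1, Cyp2u1, Cyp2c55 and Cyp2c53-ps. Fold changes below are those of the deposited RPKM on the log2(RPKM + 0.1) scale, which understates changes of low genes. The 5 mice of a group were labelled as biological replicates, and in whole tissue fewer cells of a type and less RNA per cell cannot be told apart.

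**Figure D1:**
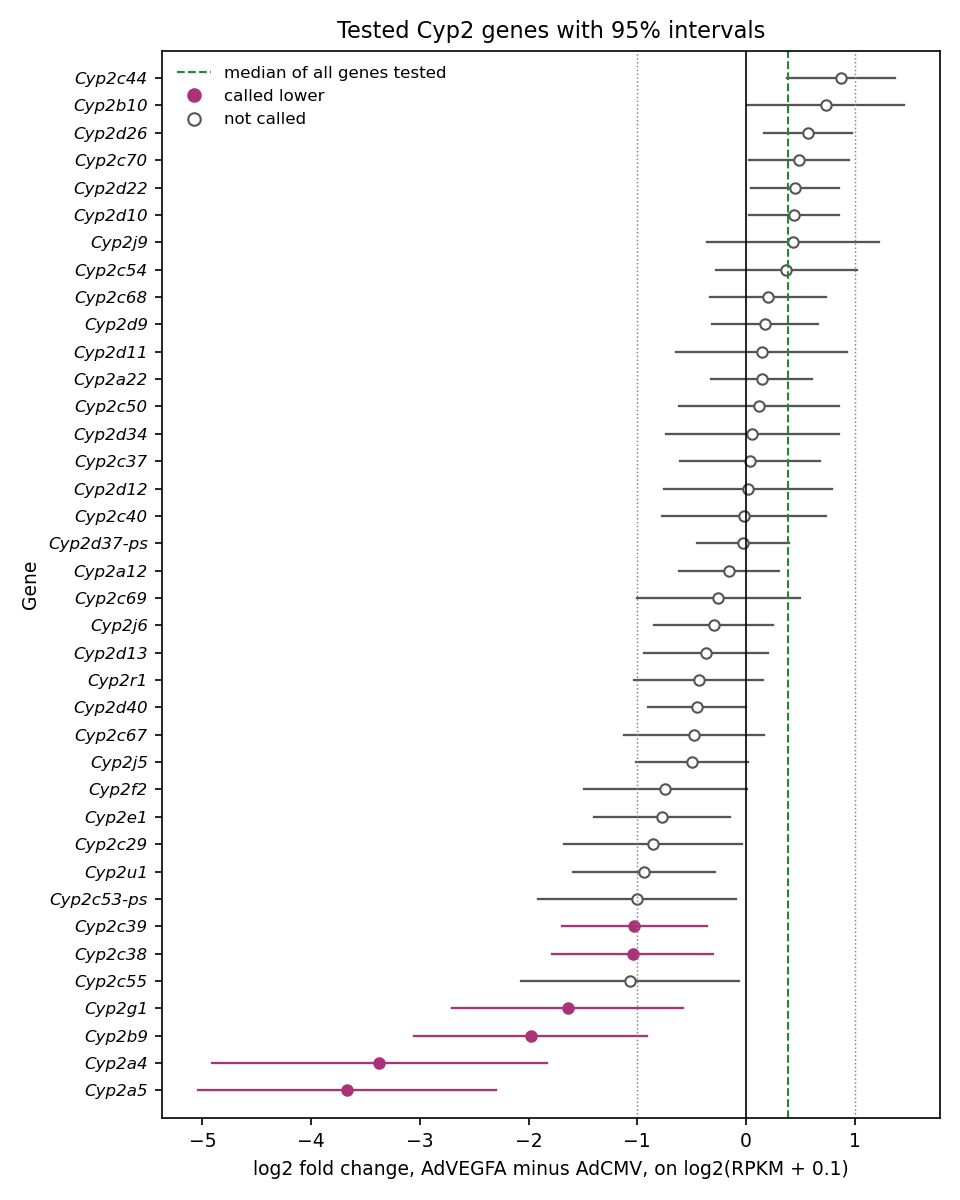
Log2 fold change of the 38 tested Cyp2 genes, AdVEGFA minus AdCMV (horizontal axis), with 95% intervals from limma. Filled points are the 6 genes called lower, dotted lines mark a log2 fold change of -1 and 1, and the dashed line is the median of all genes tested, 0.38. Cyp2a5 and Cyp2a4 lie lowest, at -3.67 and -3.37, and Cyp2c44 lies highest, at 0.87.

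The largest differences were those of Cyp2a5, the coumarin hydroxylase that also oxidizes nicotine, and Cyp2a4, a hydroxylase of testosterone and other steroids. Their genes lie on chromosome 7 in mm9, Cyp2a5 at chr7:27620358-27628283 and Cyp2a4 at chr7:27092211-27100107, both on the plus strand. They are near-identical, with 23 differences in 1482 coding bases (98.45% identity) and up to 216 coding bases in a row without any. A stretch of 90 coding bases in exon 4 is shown. It holds codon 209, whose residue is known to set the preference for coumarin or for steroids. It spans coding bases 538 to 627, counted from 1 at the A of the start codon, with capitals for the bases that differ between the genes, and was read from GENCODE transcripts in GRCm38 at chr7:26837135-26837224 for Cyp2a5 and chr7:26308972-26309061 for Cyp2a4, plus strand.
Cyp2a5: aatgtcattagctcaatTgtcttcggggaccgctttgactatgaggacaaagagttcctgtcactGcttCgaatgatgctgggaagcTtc
Cyp2a4: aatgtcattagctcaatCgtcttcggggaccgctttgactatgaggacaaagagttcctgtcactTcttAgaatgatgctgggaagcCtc
The window was chosen for having the most differences among stretches of 90 bases that start at a codon and lie within 1 exon. Written with the Cyp2a5 base first, its 4 differences are T555C, G603T, C607A and T625C, and the last is the first base of codon 209. A read that covers no such base cannot be assigned to 1 of the pair: of all stretches of 50 bases in the Cyp2a5 transcript, 31% also occurred in Cyp2a4, and 36.1% of those of Cyp2a4 occurred in Cyp2a5.

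The AdCMV mice had 114, 161, 921, 64.1 and 128 RPKM of Cyp2a5, and the AdVEGFA mice had 20.1, 8.14, 52.1, 3.46 and 13.3. All AdVEGFA mice were below all AdCMV mice, even though each group spanned more than a factor of 10. Group means were 278 ± 361 (SD, n = 5) and 19.4 ± 19.3 (SD, n = 5), and the log2 fold change was -3.67 (SE 0.65, adjusted p = 0.000522, limma), a 12.7-fold fall. Only 2 of the 38 tested members (5.26%), Cyp2a5 and Cyp2b9, had every AdVEGFA value below every AdCMV value, beside 1.29% of all genes tested. Within a mouse, Cyp2a5 ranked between 1 and 10 among the 50 genes in the AdCMV livers and between 16 and 28 in the AdVEGFA livers.

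Cyp2a4 stood at 58.3, 92.3, 557, 26.3 and 49.1 RPKM in the AdCMV mice and at 10.8, 5.61, 41.8, 1.88 and 6.28 in the AdVEGFA mice. Here the groups overlapped in 1 place, AdVEGFA mouse 3 lying above AdCMV mouse 4. The means of 157 ± 225 (SD, n = 5) and 13.3 ± 16.3 (SD, n = 5) gave a log2 fold change of -3.37 (SE 0.73, adjusted p = 0.00288, limma), or 10.4-fold lower. AdCMV mouse 3 was the highest of its group for both genes, and without it the log2 fold changes were -3.06 for Cyp2a5 and -2.68 for Cyp2a4, with adjusted p-values of 0.000908 and 0.00493 (limma). The AdCMV means without AdCMV mouse 3 were 117 ± 40.1 (SD, n = 4) for Cyp2a5 and 56.5 ± 27.4 (SD, n = 4) for Cyp2a4. AdVEGFA mouse 3 was likewise the highest of its group, and without it Cyp2a4 was at -3.97. The ratio of Cyp2a5 to Cyp2a4 moved less than either level, being 2.08 ± 0.42 (SD, n = 5) in the AdCMV and 1.71 ± 0.35 (SD, n = 5) in the AdVEGFA mice. Without AdCMV mouse 3 the AdCMV ratio was 2.19 ± 0.41 (SD, n = 4). The sum of both does not depend on which of the 2 genes a read was given to, but a read counted on both enters it 2 times. It was 90.4 to 1478 RPKM in the AdCMV mice (90.4 to 253 without mouse 3) and 5.34 to 94.0 RPKM in the AdVEGFA mice.

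The 250 bases before and 50 bases after the transcription start were also nearly the same in the pair. They are printed from RefSeq (GRCm38.p6, plus strand), with capitals for the bases that differ or have no partner in the alignment, because the genes that moved most share this sequence almost in full. The windows are chr7:26835089-26835388 for Cyp2a5 and chr7:26306942-26307241 for Cyp2a4.
Cyp2a5 promoter: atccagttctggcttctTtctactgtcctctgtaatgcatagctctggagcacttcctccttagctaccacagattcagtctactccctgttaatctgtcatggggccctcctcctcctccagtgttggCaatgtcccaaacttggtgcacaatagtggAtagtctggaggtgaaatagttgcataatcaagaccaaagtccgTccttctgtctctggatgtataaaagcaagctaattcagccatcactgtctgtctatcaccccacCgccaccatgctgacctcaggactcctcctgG
Cyp2a4 promoter: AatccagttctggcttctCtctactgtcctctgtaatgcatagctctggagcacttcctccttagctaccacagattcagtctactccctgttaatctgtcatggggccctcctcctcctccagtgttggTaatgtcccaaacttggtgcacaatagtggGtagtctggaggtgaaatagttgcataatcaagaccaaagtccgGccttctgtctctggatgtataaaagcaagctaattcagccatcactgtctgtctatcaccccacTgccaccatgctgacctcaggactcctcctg
Over 299 aligned bases they were 98.33% identical. Each contains the letters TATAAA of the TATA box, the half-site AGGTCA of nuclear receptors and the half-site GTTAAT of HNF1, on one strand or the other. The only AGGTCA match in each is on the opposite strand, read as tgacct in atgctgacctcagg, and lies after the transcription start.

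The other 2 members of the subfamily did not move in this way. Cyp2a12, a steroid-hydroxylating enzyme of the liver, read 73.9 ± 19.3 against 64.9 ± 10.5 RPKM, with a log2 fold change of -0.16 (95% interval -0.62 to 0.30). Cyp2a22 read 19.4 ± 6.01 against 20.9 ± 3.72 RPKM, with a log2 fold change of 0.14 (95% interval -0.32 to 0.61). These intervals leave out falls of the size seen for Cyp2a4 and Cyp2a5. After median-ratio scaling the values were -0.56 for Cyp2a12 and -0.26 for Cyp2a22, which changed sign, and neither was called (adjusted p = 0.0617 and 0.309, limma). Both genes follow Cyp2a5 on chromosome 7.

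**Figure D2:**
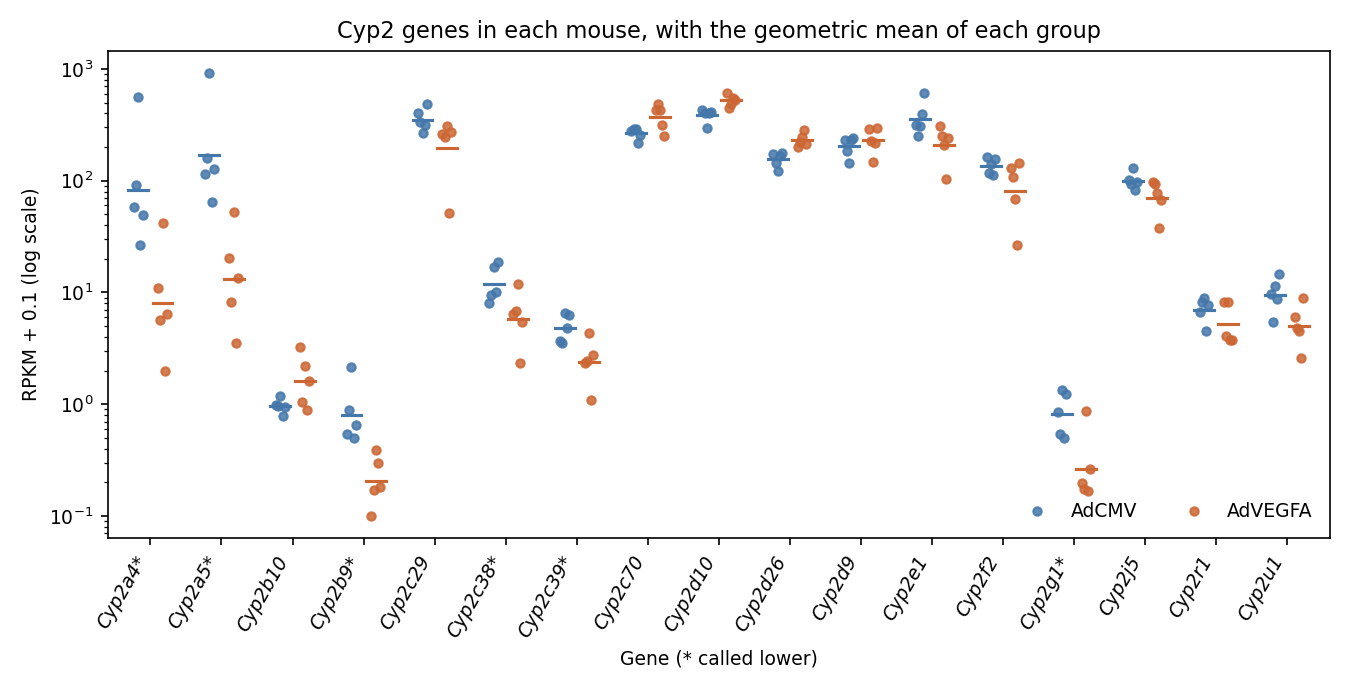
RPKM + 0.1 on a log axis in each of the 10 mice for the 17 Cyp2 genes given in full, with AdCMV mice in blue, AdVEGFA mice in orange and a bar at the geometric mean of each group. Asterisks mark the genes called lower, and in Cyp2a5 and Cyp2b9 all orange points lie below all blue points.

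The Cyp2b genes encode the classical phenobarbital-inducible enzymes, and all 5 rows were low in these livers. Cyp2b9, a form expressed more in females, gave 0.444, 0.794, 2.04, 0.398 and 0.558 RPKM in the AdCMV mice and 0, 0.072, 0.287, 0.198 and 0.080 in the AdVEGFA mice. These values rest on 6 to 30 reads and on 0 to 3 reads a library. All AdVEGFA values were lower, and the log2 fold change was -1.98 (SE 0.51, adjusted p = 0.00953, limma), a 3.94-fold fall. With a pseudocount of 1 it was -0.65 and no longer called, and with 0.01 it was -3.04. Without AdCMV mouse 3 it was -1.63 and still called.

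Cyp2b10, the best known target of CAR, read 0.888, 0.873, 1.09, 0.682 and 0.837 RPKM in the AdCMV mice against 3.15, 0.937, 2.11, 0.790 and 1.51 RPKM in the AdVEGFA mice. AdVEGFA mice 1, 3 and 5 lay above every AdCMV mouse, and mice 2 and 4 lay within the AdCMV range. The log2 fold change of 0.73 (SE 0.34, adjusted p = 0.124, limma) did not pass the test, and was 0.37 after median-ratio scaling. The values of Cyp2b10 rest on 9 to 22 reads a library in the AdCMV and 12 to 33 in the AdVEGFA mice. A difference in direction between Cyp2b9 and Cyp2b10 was therefore not established. The promoters of both are printed in the same way as above, from chr7:26173159-26173458 for Cyp2b9 and chr7:25897408-25897707 for Cyp2b10 (GRCm38.p6, plus strand).
Cyp2b9 promoter: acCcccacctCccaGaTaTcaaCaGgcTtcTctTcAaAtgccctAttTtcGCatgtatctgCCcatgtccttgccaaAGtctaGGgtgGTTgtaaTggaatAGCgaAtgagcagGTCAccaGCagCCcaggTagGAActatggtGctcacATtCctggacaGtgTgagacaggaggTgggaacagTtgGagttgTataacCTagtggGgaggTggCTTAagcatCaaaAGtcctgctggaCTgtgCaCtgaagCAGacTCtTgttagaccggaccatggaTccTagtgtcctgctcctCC
Cyp2b10 promoter: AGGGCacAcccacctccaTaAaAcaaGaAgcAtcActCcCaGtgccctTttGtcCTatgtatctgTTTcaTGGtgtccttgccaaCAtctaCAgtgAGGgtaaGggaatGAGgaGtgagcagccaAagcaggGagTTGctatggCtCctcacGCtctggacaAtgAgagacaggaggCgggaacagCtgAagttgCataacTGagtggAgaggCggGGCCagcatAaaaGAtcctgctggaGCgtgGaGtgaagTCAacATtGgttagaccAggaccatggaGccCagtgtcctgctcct
Here 289 bases could be aligned, with 77.16% identity, against 99.33% between Cyp2b9 and the untested Cyp2b13. The letters AGGTCA occurred in the window of Cyp2b9 and not in that of Cyp2b10, and a link of these letters to the values was not tested.

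Cyp2g1, an enzyme best known from the olfactory mucosa, was also scarce. It gave 0.750, 0.443, 1.24, 0.403 and 1.13 RPKM in the AdCMV livers, from 7 to 18 reads, and 0.097, 0.073, 0.776, 0.067 and 0.161 in the AdVEGFA livers, from 1 to 8 reads. AdVEGFA mouse 3 lay within the AdCMV range and the other AdVEGFA mice were below it. The log2 fold change was -1.64 (SE 0.50, adjusted p = 0.0259, limma). The call was lost without AdCMV mouse 1 (-1.63) or 5 (-1.50) and without AdVEGFA mouse 1 (-1.53), 2 (-1.49) or 4 (-1.47), at adjusted p-values of 0.0531 to 0.0608 (limma). It was kept without AdCMV mouse 3 (-1.47, adjusted p = 0.0451, limma).

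Along the chromosome 7 cluster, which in mm9 spans chr7:26587495-27943583, 13 members follow each other and 8 of them were tested. The 4 genes called lower, Cyp2b9, Cyp2a4, Cyp2g1 and Cyp2a5, were next to one another among those tested. On one side they were bounded by Cyp2b10, and on the other by Cyp2a22, Cyp2a12 and Cyp2f2, none of which was called. This order was noticed after the values had been seen.

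The Cyp2c subfamily had the most rows, 16 with 14 tested, and includes oxidizers of drugs and epoxygenases of arachidonic acid. Its summed RPKM was 1077 ± 231 (SD, n = 5) in the AdCMV and 1103 ± 333 (SD, n = 5) in the AdVEGFA group, with 2 members called lower. Cyp2c38 read 8.02, 9.31, 17.0, 10.1 and 18.5 RPKM against 6.35, 6.74, 11.8, 2.24 and 5.30. AdVEGFA mouse 3 lay among the AdCMV mice and the other AdVEGFA mice lay under them. Its log2 fold change was -1.04 (SE 0.35, adjusted p = 0.0397, limma), just past the threshold. It was not called without AdCMV mouse 3 (-0.92), 4 (-1.10) or 5 (-0.88), nor without AdVEGFA mouse 1 (-1.08), 2 (-1.10), 4 (-0.71) or 5 (-1.02).

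Cyp2c39, which oxidizes retinoic acid, read 3.59, 3.45, 6.46, 4.71 and 6.21 RPKM in the AdCMV mice and 2.22, 2.33, 4.26, 1.00 and 2.66 in the AdVEGFA mice. Again only AdVEGFA mouse 3 lay within the AdCMV range. Its log2 fold change was -1.03 (SE 0.31, adjusted p = 0.0259, limma), and the call was lost without AdCMV mouse 3 (-0.92), 4 (-1.03) or 5 (-0.93) or AdVEGFA mouse 4 (-0.75). After median-ratio scaling Cyp2c38 and Cyp2c39 were at -1.44 and -1.41.

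Cyp2c29, an abundant phenobarbital-inducible enzyme around the central vein, read 403, 336, 266, 313 and 483 RPKM in the AdCMV mice and 261, 246, 309, 51.6 and 273 in the AdVEGFA mice. The groups overlapped, and AdVEGFA mouse 4 lay far under the rest. Its log2 fold change of -0.86 (SE 0.39, adjusted p = 0.112, limma) did not pass, and without AdVEGFA mouse 4 it was -0.38. Cyp2c70, which makes the muricholic acids of mouse bile, read 276, 292, 290, 217 and 256 RPKM against 429, 481, 429, 317 and 249. All AdVEGFA mice but mouse 5 exceeded all AdCMV mice, and the log2 fold change was 0.48 (SE 0.22, adjusted p = 0.111, limma), or 0.08 after median-ratio scaling.

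Cyp2c44, an epoxygenase of arachidonic acid, had the largest rise in value among the members and is named after its values were seen. It read 51.3, 38.6, 45.0, 54.8 and 85.2 RPKM in the AdCMV mice and 101, 105, 130, 65.8 and 93.8 in the AdVEGFA mice. The groups overlapped in 1 place, AdVEGFA mouse 4 lying below AdCMV mouse 5. The log2 fold change was 0.87 (SE 0.24, adjusted p = 0.0131, limma), under the fold threshold, and without AdCMV mouse 5 or AdVEGFA mouse 4 the gene was called, at 1.04 and 1.01. After median-ratio scaling it was 0.47, with an adjusted p of 0.199 (limma).

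Along the Cyp2c cluster 2 stretches of genes took different values, which was noticed after the values had been seen and was not tested. The 5 tested genes from Cyp2c55 to Cyp2c39 (mm9 chr19:39081509-39643019) had log2 fold changes of -1.07 to -0.86, with Cyp2c55 at -1.07 and the pseudogene Cyp2c53-ps at -1.01, neither of them called. The 8 genes from Cyp2c67 to Cyp2c70 (chr19:39683349-40261776) lay between -0.48 and 0.48. After median-ratio scaling the ranges were -1.44 to -1.26 and -0.88 to 0.08. Within the second stretch, Cyp2c37, Cyp2c50 and Cyp2c54, epoxygenases around the central vein, were at 0.04, 0.12 and 0.37, and after median-ratio scaling at -0.37, -0.28 and -0.03. Cyp2c40 and Cyp2c69, forms expressed more in females, were at -0.02 and -0.25, and at -0.42 and -0.65 after scaling. For Cyp2c40 72.1% of its stretches of 50 bases occurred in other genes, most of them in Cyp2c69, so that values of Cyp2c40, Cyp2c67, Cyp2c68 and Cyp2c69 are uncertain singly.

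**Figure D3:**
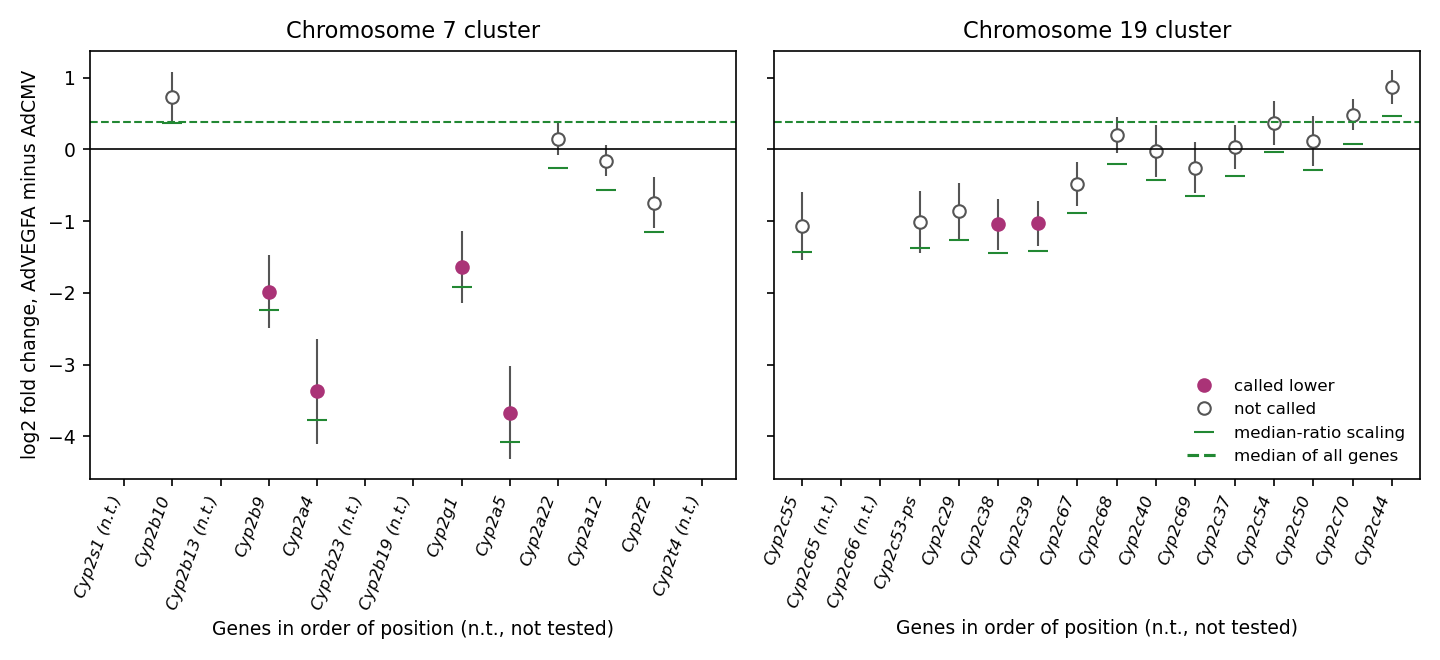
Log2 fold change, AdVEGFA minus AdCMV, with its SE for the Cyp2 genes of chromosome 7 and of chromosome 19 in their order of position. Filled points are called lower, green dashes are the values after median-ratio scaling, and the dashed line is the median of all genes, 0.38. Falls are grouped at Cyp2b9 to Cyp2a5 on chromosome 7, and values near -1 from Cyp2c55 to Cyp2c39 on chromosome 19.

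The Cyp2d subfamily, the mouse relatives of the human debrisoquine hydroxylase, had 10 members on chromosome 15, all tested and none called (limma). At an unadjusted p under 0.05, 3 had higher values and 0 lower, and voom called 0. The median log2 fold change was 0.10, or -0.30 after median-ratio scaling. Cyp2d10 was the most abundant member of the family, at 425, 406, 297, 405 and 408 RPKM in the AdCMV and 613, 450, 483, 553 and 528 in the AdVEGFA mice. Every AdVEGFA value was higher, as it was for Cyp2d26, which makes 2 of 38 tested members (5.26%) beside 14.3% of all genes. The log2 fold change of Cyp2d10 was 0.44 (SE 0.20, adjusted p = 0.109, limma) and 0.04 after median-ratio scaling.

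Cyp2d26 read 172, 145, 122, 168 and 179 RPKM in the AdCMV mice and 199, 223, 247, 286 and 212 in the AdVEGFA mice, and its groups did not overlap. Its log2 fold change was 0.57 (SE 0.19, adjusted p = 0.0386, limma), under the fold threshold, and 0.17 after median-ratio scaling (adjusted p = 0.635, limma). Cyp2d9, a testosterone hydroxylase expressed more in males, read 231, 186, 144, 230 and 243 RPKM against 292, 226, 148, 217 and 298. The groups overlapped, with a log2 fold change of 0.18 (95% interval -0.31 to 0.66) that was -0.23 after median-ratio scaling. The other Cyp2d genes had log2 fold changes of -0.45 for Cyp2d40 to 0.45 for Cyp2d22.

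Cyp2e1, which oxidizes ethanol and acetaminophen around the central vein, read 315, 252, 306, 397 and 614 RPKM in the AdCMV mice and 308, 253, 208, 104 and 242 in the AdVEGFA mice. The 3 highest values were in AdCMV mice and the 3 lowest in AdVEGFA mice, with overlap between. The means were 377 ± 142 (SD, n = 5) and 223 ± 75.9 (SD, n = 5), and the log2 fold change was -0.77 (SE 0.29, adjusted p = 0.0652, limma). After median-ratio scaling it was -1.17 and called (adjusted p = 0.0228, limma).

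Cyp2f2, which activates naphthalene and is expressed around the portal vein in liver, read 163, 118, 140, 113 and 157 RPKM against 130, 108, 68.9, 26.2 and 142. AdVEGFA mouse 4 was again the lowest, and the log2 fold change was -0.74 (SE 0.35, adjusted p = 0.132, limma). After median-ratio scaling it was -1.15 and not called (adjusted p = 0.0635, limma). Over the alternative settings listed below, leaving out each mouse included, it ran from -1.16 to -0.33.

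Among the 7 Cyp2j rows, which encode epoxygenases of fatty acids, 3 were tested and 0 called (limma), with 0 at an unadjusted p under 0.05 and 0 by voom. Cyp2j5, the main form in liver, read 100, 93.2, 129, 82.2 and 98.2 RPKM in the AdCMV mice and 96.3, 92.9, 77.0, 37.5 and 66.6 in the AdVEGFA mice. The groups overlapped, and the log2 fold change was -0.50 (SE 0.24, adjusted p = 0.142, limma) or -0.90 after median-ratio scaling. Cyp2j6 and Cyp2j9 were at -0.30 and 0.43.

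Cyp2u1, a fatty acid hydroxylase, read 9.63, 5.29, 11.3, 8.72 and 14.6 RPKM in the AdCMV mice and 5.98, 4.69, 4.38, 2.49 and 8.82 in the AdVEGFA mice. Its log2 fold change of -0.94 (SE 0.31, adjusted p = 0.0367, limma) stayed above -1 and was not called. It was called after median-ratio scaling, at -1.33, and without AdCMV mouse 2 (-1.14) or AdVEGFA mouse 1 (-1.01) or 5 (-1.15). Cyp2r1, a vitamin D hydroxylase, read 6.59, 8.20, 8.89, 4.41 and 7.58 RPKM against 8.13, 3.96, 8.16, 3.62 and 3.62. The AdVEGFA mice split into high and low values, and the log2 fold change was -0.44 (SE 0.28, adjusted p = 0.258, limma). Its row is a record of a non-coding transcript of that gene.

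The 12 members that were not tested were Cyp2b13, Cyp2b19, Cyp2b23, Cyp2c65, Cyp2c66, Cyp2j8, Cyp2j11, Cyp2j12, Cyp2j13, Cyp2s1, Cyp2t4 and Cyp2w1. Cyp2j11, Cyp2j12 and Cyp2w1 had 0 reads in all 10 mice. Cyp2b23 had 0 reads over the AdCMV mice and 10 over the AdVEGFA mice, a ratio of 4.36 when 3 reads are put in for the AdCMV group. Cyp2t4 had 0 and 5 reads, a ratio of 2.18 in the same way, and Cyp2b19 had 4 and 0 reads. AdVEGFA mouse 4 was at 0 for Cyp2b23, and AdVEGFA mice 1 and 5 were at 0 for Cyp2t4. The ratios pool the mice of a group and take the AdVEGFA reads as exact. They allow for counting error in the AdCMV group only and do not establish a rise.

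Over all members, the summed RPKM was 3194 ± 597 (SD, n = 5) in the AdCMV and 2820 ± 431 (SD, n = 5) in the AdVEGFA group, and without Cyp2a4 and Cyp2a5 it was 2760 ± 493 and 2787 ± 411. Cyp2a4 and Cyp2a5 alone summed to 434 ± 586 and 32.7 ± 35.5 RPKM. The Cyp2a share of the sum went from 15.2% ± 14.6 to 4.18% ± 0.66, that of Cyp2e1 from 11.8% ± 3.66 to 7.74% ± 1.92, and that of Cyp2d from 30.1% ± 7.04 to 42.6% ± 9.20. Cyp2c made up 34.1% ± 5.76 and 38.5% ± 7.59. AdCMV mouse 3 weighed on the AdCMV values, since its Cyp2a share was 41.1%. Without it, the AdCMV group averaged 8.68% ± 2.18 (SD, n = 4) for Cyp2a, 12.8% ± 3.37 for Cyp2e1, 33.0% ± 2.90 for Cyp2d and 36.5% ± 2.20 for Cyp2c, with a family sum of 3020 ± 522 RPKM, of which Cyp2a4 and Cyp2a5 made up 173 ± 66.4. The AdCMV sum without Cyp2a4 and Cyp2a5 was then 2847 ± 523 RPKM, above the AdVEGFA value of 2787 ± 411 and not below it. These sums and shares are given with no test. The 8 most abundant members held 68.4% of the summed mean, and of these only Cyp2a5 was called, while 4 of the 6 called genes had a mean under 10 RPKM.

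**Figure D4:**
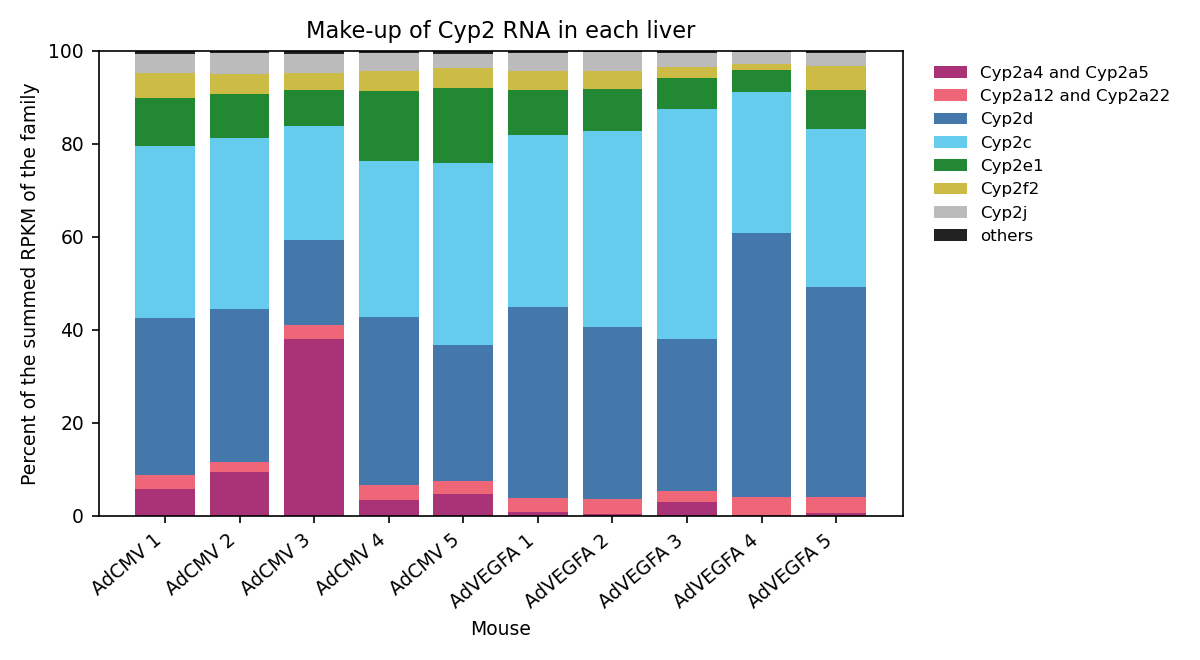
Share of the summed RPKM of the Cyp2 family in percent (vertical axis) held by each subfamily in each of the 10 mice, with Cyp2a4 and Cyp2a5 drawn apart from the other Cyp2a genes. Cyp2a4 and Cyp2a5 form a visible band in the AdCMV mice, widest in mouse 3, and a thin one in the AdVEGFA mice.

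Promoter windows from 250 bases before to 50 after the start were matched by symbol in the RefSeq promoter table used here for 40 of the 50 members, and letters were searched on both strands and compared with 27025 mouse promoters, 1 a gene. The TATA box TATAAA occurred in 20 member promoters (50%, beside 14.2% of all), the half-site AGGTCA in 13 (32.5%, beside 16%) and the HNF4 core CAAAGTCCA in 6 (15%, beside 0.477%). The 6 with the HNF4 core were all Cyp2c genes, Cyp2c40, Cyp2c65, Cyp2c67, Cyp2c68, Cyp2c69 and Cyp2c70, of which the first and Cyp2c69 share 98.89% of their promoter. Cyp2c65 was not tested, and the other five were not called. GTTAAT of HNF1 occurred in 6 (15%, beside 7.2%), TGTTTAC of forkhead factors in 3 (7.5%, beside 3.55%), TTCNNNGAA of STAT factors in 2 (5%, beside 8.47%) and the E-box CACGTG in 1 (2.5%, beside 7.24%). The 3 with TGTTTAC were Cyp2c38, Cyp2c39 and Cyp2j5. Duplicated promoters are not independent, and a match says only that the letters are there.

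The genes that serve or regulate P450 enzymes were read beside the family. Among 13 genes of electron donors, heme synthesis and heme handling (Hmox1 and Pgrmc1 included), 0 were called (limma), with 1 lower at an unadjusted p under 0.05 and 0 by voom. Their median log2 fold change was 0.03, beside 0.38 for all genes. After median-ratio scaling it was -0.38, beside -0.0044 for all genes. Cyb5a, which encodes cytochrome b5, read 456 ± 82.2 against 504 ± 81.8 RPKM. Of 17 regulators 2 (11.8%, beside 13% of all genes) were called higher, the circadian factors Dbp (2.05, SE 0.63, adjusted p = 0.0257, limma) and Tef (1.20, SE 0.35, adjusted p = 0.0196, limma), but neither was called after median-ratio scaling. The median of the regulators was 0.19, beside 0.38 for all genes, and -0.21 after median-ratio scaling. Hnf4a, the most abundant of them, read 62.7 ± 21.3 against 53.8 ± 5.60 RPKM. CAR itself, looked up after the values had been seen, read 16.5 ± 4.38 against 16.2 ± 8.37 RPKM for Nr1i3.

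Of 13 tested targets of CAR and PXR outside the family, 3 fell (23.1%, beside 1.54% of all genes), with a median of -0.66. After median-ratio scaling 7 were lower, beside 3.14% of all genes. The 3 called in the deposited RPKM were Gsta2, a glutathione transferase (-1.85, adjusted p = 0.00298), Aldh1a1, a retinaldehyde dehydrogenase (-1.33, adjusted p = 0.00015), and its relative Aldh1a7 (-1.03, adjusted p = 0.011), all by limma. Among 9 tested eicosanoid genes 1 rose (11.1%, beside 13% of all genes), the cyclooxygenase Ptgs1 (1.56). Another 1 fell (11.1%, beside 1.54%), the fatty acid hydroxylase Cyp4a10 (-1.08). Of the vitamin D genes, the 2 tested, Cyp27a1 and Gc, were at 0.06 and 0.60 and were not called, with 1 at an unadjusted p under 0.05 and 0 by voom.

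Cyp2a5 and several Cyp2c genes count among the pericentral genes of the liver, and the other pericentral genes were therefore counted. Of 10 outside the family 4 fell (40%, beside 1.54% of all genes), with a median of -0.97. After median-ratio scaling 5 fell, beside 3.14% of all genes. Glul, glutamine synthetase, read 224 ± 29.2 against 49.2 ± 13.5 RPKM (-2.23, adjusted p = 1.92e-06, limma), Slc1a2, a glutamate transporter, changed by -2.02, Axin2 by -1.29 and Oat by -1.08. Among 12 periportal genes other than Cyp2f2, 1 rose (8.33%, beside 13% of all genes), namely Alb (1.14). Their median was 0.39, beside 0.38 for all genes, and after median-ratio scaling it was -0.01, beside -0.0044. Alb was not called after this scaling. Cyp2a4 and Cyp2b9 are also known as female-biased. Among 5 other tested female-biased genes 1 fell (20%, beside 1.54% of all genes), Cyp3a44 (-1.21), with a median of -0.87. After median-ratio scaling 3 were called lower, beside 3.14% of all genes, with a median of -1.27. Among 9 male-biased genes other than Cyp2d9 3 fell (33.3%, beside 1.54% of all genes), Cyp4a12a (-2.90), Cyp4a12b (-2.48) and Elovl3 (-2.43), with a median of -0.75. After median-ratio scaling 4 fell, beside 3.14% of all genes.

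Markers of other liver cells moved between the same groups, and no gene of these lists found in the table was at 0 in all mice. All 14 endothelial markers rose (100%, beside 13% of all genes), and all 14 after median-ratio scaling. Their summed RPKM went from 41.3 to 84.6 in the AdCMV to 368 to 441 in the AdVEGFA mice, with a median log2 fold change of 2.68. Of the stellate cell markers 8 of 10 rose (80%), and after median-ratio scaling also 8. The neutrophil markers had 4 of 7 called higher (57.1%, and 3 after scaling) and the B cell markers 3 of 4 (75%, and 1 after scaling). The most abundant neutrophil markers, S100a8 and S100a9, were not called, at 0.24 and 0.15. Of those called, Elane, Camp and Ngp averaged only 0.55 to 0.93 RPKM in the AdVEGFA mice. Kupffer cell markers had 3 of 11 called higher (27.3%, and 2 after scaling) and cholangiocyte markers 1 of 5 (20%), Spp1 (3.91), beside 13% of all genes. After scaling, 1082 of the 13933 genes tested were called higher. Among T and NK cell markers 6 of 10 fell (60%, beside 1.54% of all genes), and 8 after scaling (beside 3.14% of all genes). Hepatocyte markers were present at high levels, summing to 40737 to 48725 RPKM in the AdCMV and 63589 to 76577 RPKM in the AdVEGFA mice, and 4 of 20 (20%, beside 13% of all genes) were called higher (1 after scaling). Their median was 0.46, beside 0.38 for all genes and -0.21 for the Cyp2 genes. After median-ratio scaling these medians were 0.05, -0.0044 and -0.61. The part of these shifts in the Cyp2 values was not tested.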

How the data were processed

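Liver RNA of 10 mice, 5 AdCMV and 5 AdVEGFA, was analysed from the RPKM values deposited by the authors, who mapped reads with TopHat to mm9, per the labels, and list HOMER among their tools. Read length and strand handling are not given in the sources used here. The authors deposited these RPKM for 24016 RefSeq transcripts without scaling between libraries, and reads shared by near-identical genes may be split or counted on more than 1 of them. Reads recovered on transcripts exceeded the mapped tags in every library, for example 8088392 against 7241355 in AdCMV mouse 1. How far this touches the Cyp2 genes was not tested. A fold change and an FDR made by the authors were left out. The members and gene lists were chosen with earlier results of these data known.

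Groups were taken from the sample titles. Rows that averaged more than 0.5 RPKM in either group entered limma 3.58.1 under R 4.3.3 (lmFit, then eBayes with its trend option), fitted to log2(RPKM + 0.1) with Benjamini-Hochberg adjustment, without a replicate block. The 5 rows with no symbol held at most 0.00534% of reads. Reads were recovered from the steps of the values, and at least 99.991% of those up to 300 reads were whole within 0.1. Between libraries of 1 group the variance was 12.4 times that of counting noise or more, so none was a repeat. The p-values weigh the group difference against the spread between the mice of a group. In limma the variance of each gene is drawn towards a trend over all genes tested. Tested on simulated data with 200 genes changed by 2 on the log2 scale, the fit recovered 72% with 5 false calls among 13933 genes.

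Given in full were called members, the 8 most abundant and the most abundant tested member of each subfamily, 17 genes in all. Genes outside the family were named if called with the largest change or highest in mean RPKM of a list. Sequence sharing was counted on GENCODE M21 transcripts, which matched 47 of 50 members, and alignments were made with biopython 1.88. Alternative settings were scaling by median ratios or by the upper quartile, totals without Mup genes, pseudocounts of 1 and 0.01, no filter, a mean over 1 RPKM, 1 row per symbol, treat, voom, a replicate block and leaving out each mouse. Sums and shares without AdCMV mouse 3 were added after seeing the data.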

Additional observations from a re-analysis of the deposited data

Results flagged for a closer look

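Among the 17 members given in full, each group of 5 mice was searched for a mouse far from the others on the log2 scale, by Dixon's gap over the range of the group with a limit of 0.71. Chance flags about 1 in 20 of the 34 groups. AdVEGFA mouse 4 had 51.6 RPKM of Cyp2c29, a pericentral drug oxidizer, where the other AdVEGFA mice had 246 to 309 (gap over range 0.872). The same mouse was also the lowest of its group for Cyp2a5, Cyp2a4, Cyp2e1, Cyp2f2 and Cyp2j5, at 3.46, 1.88, 104, 26.2 and 37.5 RPKM. AdCMV mouse 3 had 297 RPKM of Cyp2d10 where the other AdCMV mice had 405 to 425 (0.865), together with the highest Cyp2a5 and the lowest Mup share of its group. AdVEGFA mouse 3 had 0.776 RPKM of Cyp2g1, from 8 reads, where the others had 0.067 to 0.161 (0.731).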

How the results depend on the processing

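Cyp2a5 was called lower under all 21 alternatives (log2 fold change -4.16 to -3.06), and Cyp2a4 under all but treat, whose null is a log2 fold change of up to 1 (adjusted p = 0.0598, limma). The number of Cyp2 genes called lower is given with that of all genes in brackets, and was 6 (214) in the report. It was 10 (438) with median-ratio scaling and 10 (446) with library totals without the Mup genes. A pseudocount of 1 gave 2 (147), treat gave 1 (36), and leaving out 1 mouse gave 3 to 7 (178 to 225). The number called higher was 1 without a filter (Cyp2b23, from 10 reads, beside 1934 of all genes). It was 0 to 1 when 1 mouse was left out (1425 to 2357 of all genes). A replicate block called 8 lower (256 of all genes), with adjusted p-values of 1.59e-12 for Cyp2a5 and 5.14e-12 for Cyp2a4 (limma). Same-number correlations ran from 0.0076 to 0.291 with 3 of 5 under 0.1, and those of different numbers from -0.349 to 0.226. With 5 mice a group these do not settle whether the numbers pair the mice, and the labels do not say so. The block fit is therefore not used for the calls. Over all members and alternatives 698 values kept direction and side of the threshold, 27 lost and 17 gained a call, and 54 changed sign. The last came from 12 members, none of them called. After median-ratio scaling, upper quartile scaling and totals without Mup these were -0.26, -0.18 and -0.27 for Cyp2a22, -0.37, -0.29 and -0.38 for Cyp2c37, -0.28, -0.21 and -0.29 for Cyp2c50, -0.20, -0.13 and -0.21 for Cyp2c68, -0.26, -0.18 and -0.27 for Cyp2d11, -0.38, -0.31 and -0.39 for Cyp2d12, -0.34, -0.26 and -0.35 for Cyp2d34 and -0.23, -0.15 and -0.24 for Cyp2d9. Cyp2c54 was at -0.030 with median-ratio scaling and -0.042 without Mup. Leaving out 1 mouse gave ranges of -0.16 to 0.32 for Cyp2c37, -0.35 to 0.26 for Cyp2c40, -0.064 to 0.42 for Cyp2c50, -0.025 to 0.32 for Cyp2c68, -0.60 to 0.015 for Cyp2c69, -0.13 to 0.43 for Cyp2d11, -0.24 to 0.29 for Cyp2d12, -0.17 to 0.30 for Cyp2d34 and -0.12 to 0.064 for Cyp2d37-ps. Beyond scaling and the mice left out, the cause was not tested. At 0 to 30 reads a library, Cyp2b9 and Cyp2g1 are limited by depth.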
